A study of Mus musculus with 7 samples.

Results

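Cells break glucose down to pyruvate through glycolysis, divert part of it into the pentose phosphate pathway for NADPH and ribose, or store it as glycogen. Most steps have several isoform genes, and tissues differ in which isoform they use. The set examined here holds the glucose and lactate transporters, the glycolytic enzymes, the enzymes that feed or block pyruvate dehydrogenase, and those of the pentose phosphate pathway and of glycogen turnover. It was a fixed list of 47 mouse genes, and its members were all probe sets of the array whose only annotated symbol was in that list. This gave 86 probe sets for 43 genes, out of 18194 genes with such a probe set. Gpi1, Eno1, Pfkfb1 and G6pdx had none and are not analysed here.

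The assay used 7 Affymetrix arrays (Mouse Genome 430 2.0), hybridised with amplified RNA from 1800 to 10000 sorted bone marrow cells each. All cells came from wild-type C57Bl/6J mice, young adults of 6 to 12 weeks, and were negative for CD45 and lineage markers. The CD54+CD31-BP1+ cells, labelled stromal, have 4 arrays, called stromal 1 to 4. The CD54-CD31+ cells, labelled endothelial, have 3 arrays, called CD31+ 1 to 3. Whether the arrays of a population stem from different mice or sorts is not stated, and p-values therefore cover the spread among these samples alone, which may be technical. In bulk RNA, a larger share of cells that use a gene and more RNA per cell cannot be told apart.

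Values are deposited log2 expression values, and differences are stromal minus CD31+. A gene is represented by its brightest probe set and called different at a limma adjusted p under 0.05 together with a log2 difference of at least 1, that is 2-fold. Tests were limited to genes that exceeded an array's 40th percentile (5.48 to 5.79) on 3 or more arrays. No fold is given where a population's mean lay below that level. Levels of different genes are not compared, since each probe set has its own response.

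Marker genes followed the stromal label, and the endothelial label in part. All 6 stromal markers checked were higher on the stromal arrays, with list means of 13.09 to 13.28 against 5.26 to 6.64. Of 8 endothelial markers Kdr, Plvap and Pecam1 were called higher on the CD31+ arrays, and Stab2 was not called (-0.59). Cdh5, Emcn, Tek and Tie1 lay below the 40th percentile on every array and were not tested. All 8 megakaryocyte and platelet markers with a probe set were higher on the CD31+ arrays, with list means of 13.49 to 13.85 against 5.68 to 8.54, the latter highest on stromal 4. The 5 leukocyte markers were higher there too (11.93 to 12.38 against 5.52 to 8.04). The mean of 4 B cell markers was 7.59, 9.63 and 7.50 on CD31+ 1 to 3 and 5.88 to 7.05 on the stromal arrays, with 3 called higher on the CD31+ arrays. None of these 17 blood markers lay below the 40th percentile on all arrays. Their part in the differences given here was not tested.

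Of 41 members tested, 16 were higher on the CD31+ arrays, 9 on the stromal arrays and 16 were not called. Over all 13996 genes tested, 16.1% were called higher on the CD31+ arrays and 30.9% on the stromal arrays, against 39.0% and 22.0% of the members. The share called in either direction was 61.0% of the members and 47% of all genes. The median difference was -0.45 over the members and 0.19 over all genes. After another quantile normalization the members' counts were 17 and 6 and the all-gene median -0.12, and after cyclic loess 15 and 6 and -0.02. The stromal share of all calls was 65.7% as deposited, 52.0% after the quantile step and 57.8% after cyclic loess. Without stromal 4 and CD31+ 2, the highest of their populations in megakaryocyte and in B cell markers respectively, the members' counts were 14 and 11. The populations did not overlap in 29 members (70.7%), close to the 68.4% of all genes. A called difference of at least 2 on the log2 scale was found for 11 members (26.8%, against 20.6% of all genes), 7 toward the CD31+ arrays and 4 toward the stromal arrays.

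**Figure D1:**
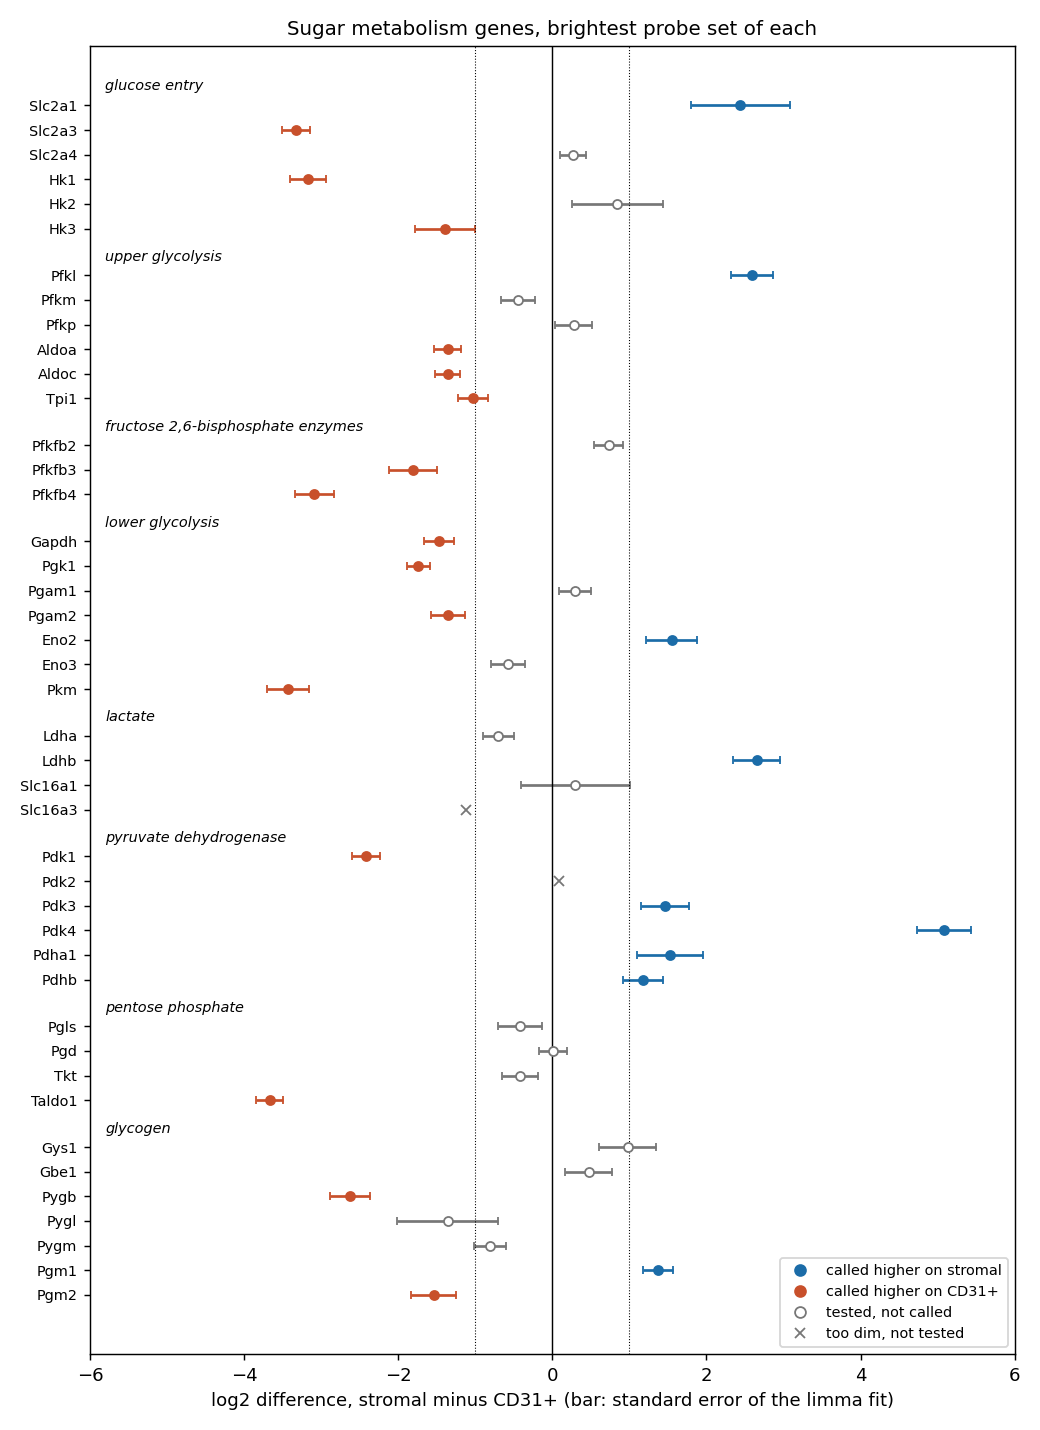
Log2 difference, stromal minus CD31+, of the brightest probe set of each of the 43 genes, grouped by role, with the standard error of the limma fit as bars and dotted lines at a difference of 1 in either direction. Colours mark calls, open circles tested genes that were not called, and crosses the 2 genes too dim to test. Most called glycolytic genes lie to the left, toward the CD31+ arrays. Pfkl, Ldhb, Slc2a1, Eno2, the subunit genes Pdha1 and Pdhb and the kinase genes Pdk3 and Pdk4 lie to the right. Of all genes tested, 30.9% were called toward the stromal and 16.1% toward the CD31+ arrays.

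The glucose transporters differed between the populations in opposite directions. Slc2a1 encodes GLUT1, the widespread transporter of basal glucose uptake, and lay at 9.62, 9.55, 9.75 and 9.43 on stromal 1 to 4 and at 6.83, 8.93 and 5.69 on CD31+ 1 to 3. The stromal arrays were close together and all above the CD31+ arrays, among which CD31+ 2 was the highest and nearest to them. The difference was 2.44 (9.59 ± 0.13, SD, n = 4, against 7.15 ± 1.65, n = 3, adjusted p = 0.0103, 5.42-fold). It was 10.1-fold without CD31+ 2 and 3.27-fold without CD31+ 3. CD31+ 2, also the odd array in Hk2 and Gys1, had the highest B cell and neutrophil marker means, whose part in these values was not tested. Slc2a3 encodes GLUT3, a high-affinity transporter known from neurons and platelets. It lay at 10.57, 10.39, 10.30 and 10.55 on the stromal arrays and at 14.01, 13.60 and 13.75 on the CD31+ arrays, 10.1-fold higher on the latter (adjusted p = 2.01e-06). Each CD31+ array was thus above every stromal array by a margin far wider than the spread within either population. Slc2a4, the insulin-regulated transporter GLUT4, overlapped between the populations (7.23 to 7.47 against 6.98 to 7.29, adjusted p = 0.179), and its sign turned under both rescalings.

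Hexokinases trap glucose in the cell by phosphorylation. Hk1, the constitutive isoform, lay at 8.60, 9.26, 8.88 and 8.95 on the stromal arrays and at 12.43, 11.93 and 11.90 on the CD31+ arrays. The populations were well apart, at 8.92 ± 0.27 (n = 4) against 12.09 ± 0.30 (n = 3), which is 8.98-fold (adjusted p = 9.79e-06). Hk2, the inducible isoform, lay at 8.87, 8.13, 8.55 and 8.56 against 7.43, 9.27 and 6.37. Its populations overlapped because CD31+ 2 exceeded every stromal array, and the difference of 0.84 was not called (adjusted p = 0.231). It was called without CD31+ 2 (1.63, adjusted p = 0.00321). Hk3, an isoform of myeloid cells, lay at 7.86, 7.90, 7.27 and 7.79 against 8.63, 10.12 and 8.52, with CD31+ 2 again the highest. Its difference of -1.39 (adjusted p = 0.0140) was -0.88 and short of a call without CD31+ 2. The mean of 9 neutrophil markers was 11.86, 12.55 and 9.54 on CD31+ 1 to 3 and 7.84 to 10.09 on the stromal arrays. Of these markers 6 were called higher on the CD31+ arrays and none lay below the 40th percentile on all arrays, and their part in the Hk3 values was not tested.

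In upper glycolysis the liver-type phosphofructokinase stood against the enzymes after it. Phosphofructokinase commits sugar to glycolysis and has 3 isoform genes. Pfkl lay at 10.65, 11.07, 10.61 and 11.13 on the stromal arrays and at 8.81, 7.81 and 8.20 on the CD31+ arrays. The stromal arrays were all higher, by 6.03-fold (adjusted p = 9.45e-05). Of its other probe sets 1 was also called (1.64) and 1 was not (0.78). Pfkm, the muscle type, lay at 8.31, 8.15, 8.02 and 7.91 against 8.96, 8.26 and 8.44. Pfkp, the platelet type, lay at 9.05, 8.83, 8.73 and 8.83 against 8.15, 9.08 and 8.51. In both genes the populations overlapped and no call was made (adjusted p = 0.0954 for Pfkm and 0.319 for Pfkp). Under both rescalings Pfkm was called higher on the CD31+ arrays (-1.06, adjusted p = 0.00863, after the quantile step and -1.09, adjusted p = 0.0101, after cyclic loess), and the sign of Pfkp turned. Aldoa, the main aldolase, was 2.57-fold higher on the CD31+ arrays (11.83 ± 0.15 against 13.19 ± 0.10, adjusted p = 2.46e-04). The triose phosphate isomerase gene Tpi1 was 2.04-fold higher there (adjusted p = 0.00233) and fell short of a call without stromal 1 (-0.92) or without CD31+ 1 (-0.98). Aldoc, the brain-type aldolase, was higher on the CD31+ arrays at a low level (4.99 ± 0.03 against 6.35 ± 0.14), with the stromal mean below the 40th percentile.

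The PFKFB enzymes make and degrade fructose 2,6-bisphosphate, the strongest activator of phosphofructokinase. Pfkfb4 lay at 8.02, 7.42, 7.42 and 7.97 on the stromal arrays and at 10.53, 10.67 and 11.20 on the CD31+ arrays. Every CD31+ array was higher, by 8.54-fold on average (adjusted p = 2.22e-05). Pfkfb3, an inducible isoform with high kinase activity, lay at 8.27, 8.07, 7.95 and 8.95 against 9.79, 9.92 and 10.66 and was 3.52-fold higher on the CD31+ arrays (adjusted p = 0.00144). Pfkfb2, the heart-type isoform, lay at 6.82, 6.93, 6.77 and 7.20 against 6.24, 5.99 and 6.39. Its populations did not overlap, yet the difference of 0.73 stayed under the size required for a call (adjusted p = 0.00971), and another of its tested probe sets stood at -0.99.

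In lower glycolysis, which yields ATP and pyruvate, 4 of 7 members tested were called higher on the CD31+ arrays and 1 on the stromal arrays. Over all genes tested these shares were 16.1% and 30.9%. Pkm encodes pyruvate kinase of muscle and most other tissues, whose splice forms were not told apart here. It lay at 9.21, 9.47, 8.69 and 9.18 on the stromal arrays and at 13.04, 12.13 and 12.51 on the CD31+ arrays. The populations were far apart, at 10.7-fold (adjusted p = 1.89e-05), on the only probe set of the gene. Pgk1, phosphoglycerate kinase, was 3.34-fold higher on the CD31+ arrays (11.05 ± 0.08 against 12.79 ± 0.04, adjusted p = 3.39e-05). Gapdh, often taken as a reference gene, was 2.78-fold higher there (11.91 ± 0.22 against 13.38 ± 0.21, adjusted p = 3.93e-04). The 3' minus 5' difference of its control probe sets, a sign of RNA length, was 3.07 to 3.51 on the stromal and 2.37 to 3.50 on the CD31+ arrays. All 3 Gapdh probe sets were called, with differences from -1.93 to -1.47. Pgam2, the muscle mutase, was higher at a low level on the CD31+ arrays (5.42 ± 0.12 against 6.78 ± 0.41), and the widespread Pgam1 was not called (8.89 ± 0.21 against 8.60 ± 0.30, adjusted p = 0.248). Pgam1 changed sign under both rescalings. The mean of 5 skeletal muscle markers was 5.35 to 5.58 on the stromal and 6.57 to 6.96 on the CD31+ arrays, with 2 of 3 tested called higher on the CD31+ arrays and Myh4 below the 40th percentile on all arrays. Its part in the values of Pgam2 and of the other muscle-type genes was not tested. Eno2, the neuronal enolase, had stromal values 2.92-fold higher (7.33 ± 0.55 against 5.78 ± 0.40, adjusted p = 0.00417). On CD31+ 1 and 2 it lay at 5.52 and 5.59, below the 40th percentiles of those arrays (5.68 and 5.69). The muscle enolase gene Eno3 stood at -0.58 and was not called (adjusted p = 0.0412).

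**Figure D2:**
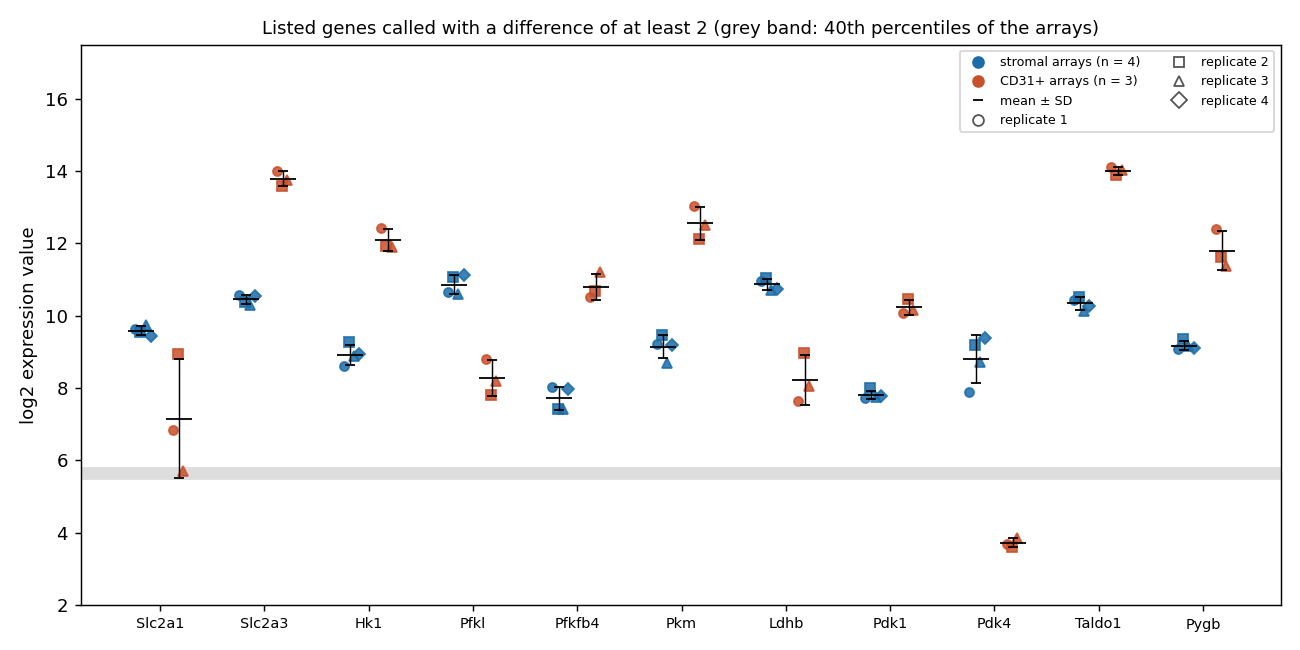
Log2 expression value on each array for the 11 genes called with a difference of at least 2, with symbols for the replicate number, black bars for mean ± SD and a grey band for the 40th percentiles of the arrays. The populations do not overlap in any of the 11 genes, which a selection for large called differences favours. Among all genes tested 68.4% do not overlap. Slc2a1 has the widest CD31+ spread of the 11 (5.69 to 8.93), and Pdk4 lies below the band on all 3 CD31+ arrays.

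Lactate dehydrogenase interconverts pyruvate and lactate as a tetramer of A and B subunits. Ldhb, whose B subunit prevails in oxidative tissue, lay at 10.95, 11.03, 10.72 and 10.75 on the stromal arrays and at 7.64, 8.96 and 8.05 on the CD31+ arrays. The stromal values were 6.27-fold higher (adjusted p = 1.59e-04), and all 4 of its probe sets were called, with differences from 2.03 to 4.64. Ldha, whose A subunit prevails in muscle, lay at 11.40, 11.63, 11.60 and 11.46 against 12.60, 12.00 and 12.08. Its CD31+ arrays were all higher, but the difference of -0.70 (adjusted p = 0.0140) was too small for a call. With a block for the split in hybridisation controls it was called (-1.07, adjusted p = 0.00702). The lactate transporter gene Slc16a1 was not called (7.99 ± 0.36 against 7.70 ± 1.79, adjusted p = 0.720). On CD31+ 3 it lay at 5.64, and without that array its difference was -0.73. Slc16a3, the lactate exporter of glycolytic cells, was too dim to test (4.43 ± 0.14 against 5.55 ± 0.23).

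Pyruvate dehydrogenase turns pyruvate into acetyl-CoA, and the PDK kinases switch it off. Its subunit genes Pdha1 and Pdhb had higher stromal values, by 2.88-fold (adjusted p = 0.0137) and 2.27-fold (adjusted p = 0.00463). The Pdha1 difference fell to 0.97, short of a call, without CD31+ 3, and its other probe set stood at 0.35. The other Pdhb probe set stood at 0.04, and Pdhb missed the call under both rescalings (0.75 and 0.71). The kinases went opposite ways. Pdk4, the kinase induced by fasting and fatty acids, lay at 7.88, 9.20, 8.71 and 9.38 on the stromal arrays and at 3.68, 3.61 and 3.86 on the CD31+ arrays, where it was below the 40th percentile. Its difference of 5.08 was the widest of all members tested (adjusted p = 7.94e-06) and lay between 4.83 and 5.38 in every alternative fit run. Pdk3 lay at 9.14, 9.13, 9.03 and 8.83 against 8.05, 6.79 and 7.87 and was 2.75-fold higher on the stromal arrays (adjusted p = 0.00374), a call lost under both rescalings (0.83 and 0.81). Pdk1, a target of hypoxia-inducible factor, lay at 7.72, 7.99, 7.74 and 7.79 against 10.08, 10.45 and 10.16. All CD31+ arrays were higher, by 5.35-fold (adjusted p = 1.11e-05), and the 3 probe sets tested were all called. Pdk2 was too dim to test, with overlapping values of 5.28 to 5.78 and 5.22 to 5.43.

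In the pentose phosphate pathway 1 gene stood out. Taldo1 encodes transaldolase, which returns pentoses to glycolysis in the non-oxidative branch. It lay at 10.44, 10.51, 10.13 and 10.26 on the stromal arrays and at 14.11, 13.88 and 14.02 on the CD31+ arrays, 12.7-fold higher (adjusted p = 1.12e-06). The CD31+ values approached the top of the arrays' range (14.68 to 14.82), and the gene has a single probe set. Transketolase (Tkt), its partner in that branch, was not called (12.19 ± 0.14 against 12.61 ± 0.44, adjusted p = 0.133). Of the oxidative branch, which makes NADPH, Pgd lay at 12.71 ± 0.14 against 12.70 ± 0.20 (adjusted p = 0.956) and Pgls at 9.31 ± 0.43 against 9.74 ± 0.38 (adjusted p = 0.218). None of the 4 Pgd and 3 Tkt probe sets was called.

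Among the glycogen genes, the brain-type phosphorylase gene, Pgm1 and Pgm2 were called. Phosphorylases release glucose from glycogen. Pygb lay at 9.07, 9.36, 9.15 and 9.10 on the stromal arrays and at 12.39, 11.62 and 11.37 on the CD31+ arrays. All CD31+ arrays were higher, by 6.17-fold (adjusted p = 6.32e-05). Pygl, the liver type, lay at 6.80, 7.05, 5.95 and 6.95 against 8.69, 9.20 and 6.24, and CD31+ 3 fell among the stromal arrays. Its difference of -1.36 was not called (adjusted p = 0.0983), and was -2.26 and called without CD31+ 3 or with the replicate number as a block (-1.44, adjusted p = 0.0315). Pygl and the neutrophil marker mean given above were both lowest on array 3 of each population and highest on CD31+ 2, and the part of such cells in Pygl was not tested. Pygm, the muscle type, lay at 5.35, 5.33, 5.48 and 5.72 against 6.41, 5.89 and 6.54 and was not called (-0.81, adjusted p = 0.0103), with the stromal mean below the 40th percentile. Without CD31+ 2 it was called (-1.01, adjusted p = 0.00258). Phosphoglucomutase, encoded by Pgm1, links glycogen to glycolysis, and the part of Pgm2 in that step was not examined. Pgm1 was 2.58-fold higher on the stromal arrays (8.91 ± 0.09 against 7.54 ± 0.28, adjusted p = 4.22e-04), and Pgm2 was 2.91-fold higher on the CD31+ arrays (6.88 ± 0.20 against 8.42 ± 0.61, adjusted p = 0.00223). The Pgm1 call was lost under both rescalings (0.75 and 0.72). The other Pgm1 probe set stood at 0.93 with overlapping populations and was not called (adjusted p = 0.16). The synthase gene Gys1 (0.98, adjusted p = 0.0437) and the branching enzyme gene Gbe1 (0.47, adjusted p = 0.191) were not called. Gys1 lay at 8.77 on CD31+ 2 against 7.34 and 7.24 on CD31+ 1 and 3, and without CD31+ 2 it was called (1.48, adjusted p = 0.000568).

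Isoform balance was read from the log2 difference between 2 genes on the same array, which a constant shift of an array leaves unchanged. The zero of such a difference has no meaning, and only its change between populations is described. The populations did not overlap in 14 of 18 pairs compared, where 68.4% of single genes did not overlap either, so nothing particular to these pairs is read from the count. With 4 against 3 arrays the exact two-sided permutation test has 35 splits and cannot go below p = 0.0571, the value reached in all 14 pairs (0.0735 after adjustment over the 18 pairs), so no pair could pass. Slc2a3 minus Slc2a1 was 0.55 to 1.12 on the stromal and 4.67 to 8.06 on the CD31+ arrays, a change of -5.77. Hk2 minus Hk1 was higher on the stromal arrays (-0.40 ± 0.57 against -4.40 ± 1.53). Pfkm minus Pfkl stood at -2.77 ± 0.38 against 0.28 ± 0.15 and Pfkp minus Pfkl at -2.01 ± 0.33 against 0.31 ± 0.96, so the balance leaned to the liver type on the stromal arrays relative to the CD31+ arrays. Those changes, -3.04 and -2.31, shrank to -1.23 and -0.50 on the Pfkl probe set left when suffixed probe sets, which can match several transcripts, were set aside. Ldhb minus Ldha stood at -0.66 ± 0.18 against -4.01 ± 0.96, a change of 3.35 toward the B subunit on the stromal arrays. Among the kinases, Pdk3 minus Pdk1 changed by 3.88 (1.22 ± 0.16 against -2.66 ± 0.88), and Pdk4 minus Pdk1 by 7.50 (8.21 after cyclic loess), with Pdk4 dim on the CD31+ arrays. Without suffixed probe sets the change of Slc2a3 minus Slc2a1 was -4.00, that of Pdk3 minus Pdk1 2.94 and that of Pdk4 minus Pdk1 6.56. Slc2a3 then rested on a probe set too dim to test (3.65 ± 0.13 against 6.12 ± 1.03), so that change is uncertain in size. Of the 4 Slc2a3 probe sets only 2 passed the filter. Pgm2 minus Pgm1, whose enzymes were not shown here to serve the same step, changed by -2.91 and Pfkfb4 minus Pfkfb3 by -1.28. Aldoc minus Aldoa differed by less than the spread between replicates (-6.84 ± 0.14 against -6.84 ± 0.04), although Aldoc was dim on the stromal arrays, and the change was 0.64 with the mean of probe sets and 0.50 after cyclic loess. The pairs Pygb minus Pygl, Pygm minus Pygl and Slc16a3 minus Slc16a1 overlapped as well.

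**Figure D3:**
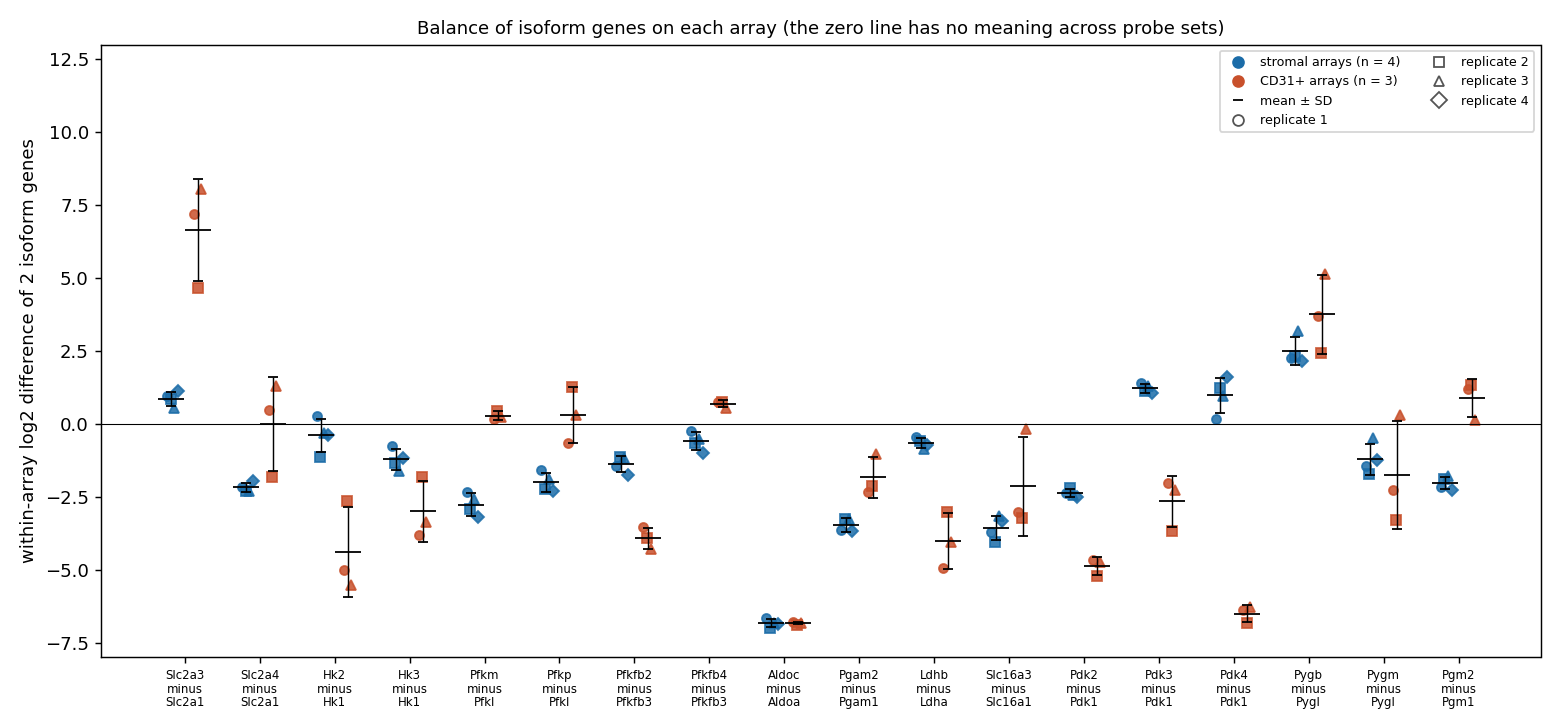
Within-array log2 difference between 2 isoform genes for 18 pairs, one point per array, with symbols for the replicate number and black bars for mean ± SD. The populations are apart in 14 pairs, as they are in 68.4% of all single genes tested, by the widest margin in Pdk4 minus Pdk1 and Slc2a3 minus Slc2a1, and share their range in Aldoc minus Aldoa, Slc16a3 minus Slc16a1, Pygb minus Pygl and Pygm minus Pygl.

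The probe sets of 1 gene mostly pointed the same way. Of 74 member probe sets tested, 31 were called higher on the CD31+ arrays and 15 on the stromal arrays (62.2% in all). Of all 29449 probe sets tested, 14.6% were called toward the CD31+ and 26% toward the stromal arrays, 40.6% in all. In 15 of 19 genes with at least 2 tested probe sets, all tested differences had one sign, and no gene had calls in both directions. All 5 Aldoa probe sets and all 3 of Tpi1 and of Pgk1 were called toward the CD31+ arrays, and all 3 of Slc2a1 toward the stromal arrays. Every probe set of Aldoa, Tpi1 and Ldhb carries a suffix and can match several transcripts, so agreement within these genes may not be independent. Hk1 ranged from -3.17 to -1.02, so the size of its difference depended on the probe set. The genes with tested probe sets of both signs were Slc2a4, Pfkp, Pfkfb2 and Pgd, none of them called.

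**Figure D4:**
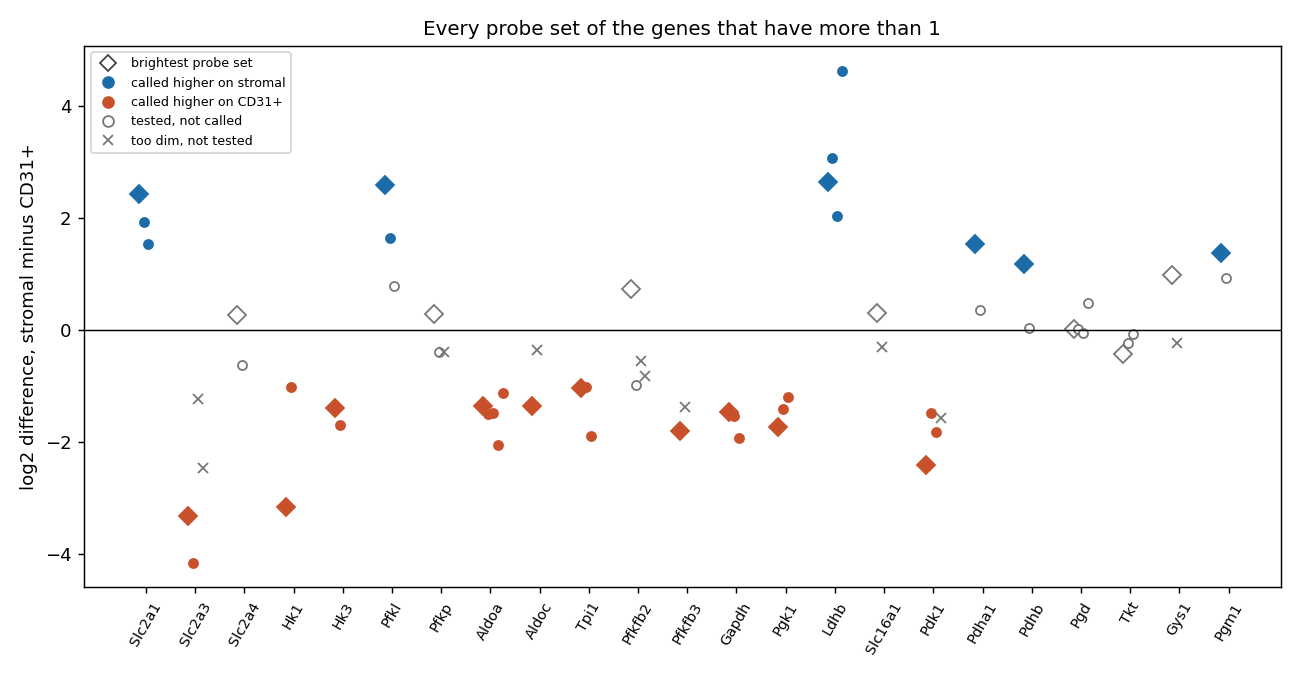
Log2 difference, stromal minus CD31+, of every probe set of the genes with more than 1, with a diamond for the brightest probe set, filled symbols for calls, open ones for tested probe sets without a call and crosses for those too dim to test. The 4 Ldhb probe sets run from 2.03 to 4.64 and the 5 Aldoa probe sets from -2.05 to -1.12, and no gene has calls on both sides of 0.

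Many glycolytic genes are known targets of hypoxia-inducible factors, whose sites can hold ACGTG, and of E-box factors such as MYC, which bind CACGTG. The second motif contains the first. No other form of either site was searched, so a window without a match may still hold one. Promoter windows of 300 bases (250 before and 50 after the start) came from RefSeq on GRCm38.p6, with 65 windows for 45 of the 47 listed genes, all but Slc2a3 and Slc2a4. ACGTG on either strand was present in 29 of the 65 (44.6%), against 19.6% of the 32851 windows in the whole table, and CACGTG in 6 (9.23%, against 7.15%). By call, ACGTG was present in 12 of 22 windows of members higher on the CD31+ arrays (54.5%), 4 of 9 of those higher on the stromal arrays (44.4%) and 10 of 22 of those not called (45.5%). A match is a description and not a binding site. Windows of the lactate dehydrogenase pair are shown because the balance of these genes differed. Pgk1 and Pkm are shown as members higher on the CD31+ arrays that have matches. Other members higher there, among them Taldo1, Pfkfb4 and Pdk1, have 0 matches in every window. Ldha and Pkm each have 2 windows in the table, of which the one with matches was chosen for display, while the other (chr7:46846832-46847131 for Ldha and chr9:59656326-59656625 for Pkm, both plus strand) has 0 matches. Ldha and Ldhb thus differ in the motif at only 1 of the Ldha starts. Capitals mark ACGTG or its reverse complement CACGT, and the combined CACGTG where both overlap. The Ldha window shown (chr7:46845554-46845853, plus strand) holds 5 matches, with each of its 2 CACGTG counted once on either strand. The Ldhb window (chr6:142507908-142508207, minus strand) holds none. The Pgk1 window (chrX:106186850-106187149, plus strand) and the Pkm window shown (chr9:59656977-59657276, plus strand) hold 2 each, without a CACGTG.
Ldha: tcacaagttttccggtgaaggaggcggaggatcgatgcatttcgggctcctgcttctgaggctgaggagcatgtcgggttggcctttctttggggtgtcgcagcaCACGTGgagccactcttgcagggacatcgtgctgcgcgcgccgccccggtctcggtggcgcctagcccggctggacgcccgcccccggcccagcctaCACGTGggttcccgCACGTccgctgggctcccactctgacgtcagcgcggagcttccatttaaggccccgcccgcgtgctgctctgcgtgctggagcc
Ldhb: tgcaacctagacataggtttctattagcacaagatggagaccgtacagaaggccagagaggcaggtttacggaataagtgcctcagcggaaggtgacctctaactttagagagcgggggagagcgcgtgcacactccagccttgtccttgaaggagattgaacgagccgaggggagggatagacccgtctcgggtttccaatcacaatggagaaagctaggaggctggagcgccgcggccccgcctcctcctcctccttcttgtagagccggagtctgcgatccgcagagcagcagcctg
Pgk1: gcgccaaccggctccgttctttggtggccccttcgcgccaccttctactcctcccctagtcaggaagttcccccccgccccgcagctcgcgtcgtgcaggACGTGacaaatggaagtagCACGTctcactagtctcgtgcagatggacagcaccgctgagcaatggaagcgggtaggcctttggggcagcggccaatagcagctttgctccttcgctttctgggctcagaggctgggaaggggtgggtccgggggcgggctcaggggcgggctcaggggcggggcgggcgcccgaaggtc
Pkm: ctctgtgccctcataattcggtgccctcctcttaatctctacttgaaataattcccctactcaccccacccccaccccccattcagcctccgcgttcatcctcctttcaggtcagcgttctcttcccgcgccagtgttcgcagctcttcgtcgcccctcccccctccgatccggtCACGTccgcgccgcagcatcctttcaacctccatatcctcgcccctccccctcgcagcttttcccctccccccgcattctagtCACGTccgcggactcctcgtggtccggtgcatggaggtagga

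Other sugar metabolism genes, outside the list, were more often called toward the stromal arrays, as were genes at large. Of 46 tested, from 60 in this further list, 17 were called toward the stromal side and 7 toward the CD31+ side (52.2% called, against 47% of all genes), with a median difference of 0.51. A further quantile normalization turned these counts into 11 and 10. The pyruvate dehydrogenase partners Dlat, Dld and Pdhx, which encode the acetyltransferase, the dihydrolipoamide dehydrogenase and a binding component, were higher on the stromal arrays by 1.49, 2.42 and 1.66 on the log2 scale. The phosphatase genes Pdp1 and Pdp2, which switch the complex back on, were higher there by 2.24 and 1.47 on that scale. Dld and Pdp1 had CD31+ means below the 40th percentile, and in Pdp2 the populations overlapped. These 5 calls and those of Pdha1 and Pdhb have the same direction as Pdk3 and Pdk4 and the opposite one to Pdk1. The 5 genes were chosen after their values were seen, and stromal calls were also commoner over all genes (30.9% against 16.1%). Mpc1, a pyruvate carrier gene of the same list, stood at -0.94 and was not called. Among the genes with the widest differences were H6pd, the pentose phosphate enzyme of the endoplasmic reticulum (12.26 ± 0.11 against 8.43 ± 0.94, adjusted p = 7.56e-05), Stbd1, a glycogen-binding protein (2.91, dim on the CD31+ arrays), the monocarboxylate transporter gene Slc16a7 (8.70 ± 0.14 against 5.91 ± 0.07) and the lysosomal glucosidase gene Gaa (11.25 ± 0.18 against 8.49 ± 0.42). In the other direction were Pgm2l1, which makes glucose 1,6-bisphosphate (7.08 ± 0.63 against 12.26 ± 0.56, adjusted p = 1.4e-05), the phosphatase-targeting gene Ppp1r3d (7.24 ± 0.18 against 10.01 ± 0.25) and the glycogen primer gene Gyg (8.52 ± 0.29 against 10.74 ± 0.07).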

How the data were processed

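The authors deposited log2 expression values of 45101 probe sets on 7 arrays, made with RMA in Affymetrix Expression Console 1.1 per the submitters' processing notes. The genome build is not given in the sources used here. Probe sets were named from the platform annotation of the array, in which 34958 have 1 symbol, 932 several and 9211 none. The brightest probe set over all arrays stood for each gene, Gapdh by its control probe sets. limma 3.58.1 (lmFit, eBayes, no covariates) in R 4.3.3 compared 4 stromal with 3 CD31+ arrays over 13996 genes, and separately over 29449 probe sets, with Benjamini-Hochberg adjustment over all. Permutation tests used scipy 1.17.1. The script was tested on simulated data. The members, gene lists and alternatives were chosen with earlier results of these data known. Values in every array are given for members called with a difference of at least 2 and their isoform genes. Of other pathway genes up to 4 in each direction are named with a difference of at least 2. Beside them stand the pyruvate dehydrogenase genes and Mpc1, which were chosen after their values were seen. No 2 arrays held identical values, and for arrays their number limits the precision. All 7 columns were used. Hybridisation controls were 11.33 and 11.37 on CD31+ 2 and 3 and 9.51 to 9.75 on the other arrays.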

Additional observations from a re-analysis of the deposited data

Results flagged for a closer look

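In 2 of the 43 genes 1 stromal array lay apart from the other stromal arrays by a gap that took up most of the range. Slc2a4 was lowest on stromal 2, at 7.23 against 7.45 on the next array. Pdk2, too dim to be tested, was highest on stromal 2, at 5.78 against 5.37. Chance marks about 5% of groups in this way.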

How the results depend on the processing

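All 25 called members kept their direction in every alternative fit in which they were tested, and 15 also kept their call in each. Leaving out probe sets with the suffixes _s_at, _x_at and _a_at left 17 of the 25 to test, of which 16 stayed called, and 10 members were then called higher on the CD31+ arrays. The called members not tested there were Slc2a3, Hk1, Aldoa, Aldoc, Tpi1, Eno2, Ldhb and Taldo1. Hk2 minus Hk1 and Ldhb minus Ldha could not be formed from the remaining probe sets. With an adjusted p alone, 4415 genes were called higher on the CD31+ arrays in place of 2253. After another quantile normalization 11 further pathway genes were called higher on the stromal arrays in place of 17. A block for the split in hybridisation controls leaves CD31+ 1 alone to stand for its population and assumes that it varies like the others; 21 of the 25 calls then remained. The calls of Slc2a1 (adjusted p = 0.0551), Hk3 (-0.93), Pdk3 (0.98) and Pdha1 (adjusted p = 0.18) did not, while Ldha gained one. Calls of Aldoc (-0.87) and Pgam2 (-0.98) were lost under cyclic loess. Of the 16 members not called, 8 were called in some alternative fit. Signs turned only in genes without a call: Slc2a4 (-0.18 with the mean of probe sets, -0.14 after the quantile step, -0.06 after cyclic loess), Pfkp (-0.18, -0.37 and -0.37), Pgam1 (-0.37 and -0.36 after the rescalings), Slc16a1 (0.00, -0.12 and -0.27, and -0.84 with the hybridisation-control block), Pgls (0.02) and Gbe1 (-0.12) with that block. When 1 array at a time was left out, Slc16a1 ran from -0.73 to 0.87 and Pgd from -0.06 to 0.13. The causes were not tested. No isoform pair without overlap turned its sign. Whether the replicate numbers pair the arrays could not be decided from so few arrays. Deviations of same-numbered arrays correlated at 0.00, 0.03 and 0.12, the last being the highest value between any stromal and any CD31+ array. Some arrays correlated best with their own number and others did not. With the replicate block 17 members were called higher on the CD31+ and 9 on the stromal arrays, and all 25 calls remained. Signal near the arrays' floor and ceiling limits the sizes of Pdk4, Aldoc, Pgam2, Eno2, Pygm, Dld, Pdp1, Stbd1 and Taldo1.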

Other observations

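A few probe sets share their annotation between a listed gene and others and so belong to no member. Of these, 3 carry Gapdh together with pseudogenes or unnamed models. The brightest lay at 12.35 to 12.97 on the stromal and 13.39 to 13.90 on the CD31+ arrays, the next at 6.04 to 6.77 and 8.07 to 8.70, and the dimmest at 5.72 to 6.11 and 6.68 to 7.49. In each the populations did not overlap, as in the Gapdh control probe sets and in 68.4% of all genes tested. Another, annotated to Hk1 together with the ribosomal protein gene Rpl17 and its copies, lay at 12.64 to 13.21 on the stromal and 12.80 to 13.73 on the CD31+ arrays, where the populations overlapped.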
